A study of Mus musculus with 12 samples.

Results

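A set of 10 genes of iron transport and storage was followed in mouse bone-marrow-derived macrophages (BMDMs), which are macrophages grown in culture from marrow precursors. They were taken by symbol from the deposited table of read counts. The rule itself uses no measured value, but the set was chosen with earlier results of these data known. They are the importer receptor Tfrc, the divalent metal transporters Slc11a2 and Slc11a1, the exporter Slc40a1, the ferroxidase Cp, the ferritin subunits Fth1 and Ftl1, the siderophore-binding protein Lcn2, and the iron regulatory proteins Aco1 and Ireb2. All 10 were found, of 56748 genes in the table, and all 10 were among the 12261 genes tested. The cells came from wild-type (WT) C57BL/6N mice or from Alpk1-/- (KO) mice of the same strain, and were grown for 7 days in medium conditioned by L929 cells, a fibroblast line whose supernatant supplies macrophage growth factor. Each genotype received PBS or 100 µM ADP-Hep for 4 h. This gave 4 groups of 3 libraries. ADP-Hep is ADP-heptose, a sugar nucleotide of bacterial lipopolysaccharide synthesis that the cytosolic kinase ALPK1 binds. The comparisons address which of the changes need ALPK1: the treatment within each genotype, the genotypes within each treatment, and the difference between the treatment responses. Separate animals or cultures are not named for the 3 libraries within a group, nor are littermates, and the construction of the Alpk1 allele is not described. The p-values therefore reflect only library-to-library spread, which may be technical.

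Macrophages take up iron bound to transferrin through the transferrin receptor (Tfrc), move it across endosomal and phagosomal membranes with the NRAMP transporters (Slc11a2 and Slc11a1), store it in ferritin shells made of heavy (Fth1) and light (Ftl1) subunits, and release it through ferroportin (Slc40a1), with ceruloplasmin (Cp) oxidising the exported iron. Iron regulatory proteins (Aco1 and Ireb2) bind hairpins called iron-responsive elements in messenger RNAs when iron is scarce: a hairpin in a 5′ UTR blocks translation, and hairpins in a 3′ UTR protect the message from decay. In tissues, macrophages recycle the iron of old red cells, and during infection they are known to withhold iron from microbes by releasing less of it and by secreting lipocalin 2 (Lcn2), which captures bacterial siderophores.

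A search by pattern misses iron-responsive elements that depart from the pattern. The hairpin cores that it found in the members are shown with their side of the coding sequence. They were found in GENCODE M21 transcripts (GRCm38) as a C, 5 bases, CAGTGN and 5 bases that pair with the first 5, G-T pairs allowed. The bulged C and the CAGTGN loop are in capitals, within 29 bases read 5′ to 3′ on the transcript strand.
Slc40a1, 5′ UTR, chr1:45925465-45925493, minus strand: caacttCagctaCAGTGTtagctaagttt
Fth1, 5′ UTR, chr19:9982732-9982760, plus strand: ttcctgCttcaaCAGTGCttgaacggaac
Ftl1, 5′ UTR, chr7:45459779-45459807, minus strand: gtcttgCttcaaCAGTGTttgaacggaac
Tfrc, 3′ UTR, chr16:32631219-32631247, plus strand: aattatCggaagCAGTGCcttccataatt
Tfrc, 3′ UTR, chr16:32631598-32631626, plus strand: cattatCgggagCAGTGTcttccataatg
Tfrc, 3′ UTR, chr16:32631663-32631691, plus strand: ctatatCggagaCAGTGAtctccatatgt
Tfrc, 3′ UTR, chr16:32631710-32631738, plus strand: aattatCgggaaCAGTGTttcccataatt
The exporter and both ferritin subunits each carried 1 core in the 5′ UTR, and Tfrc carried 4 in its 3′ UTR. Over 21901 protein-coding genes, 0.142% had such a core in a 5′ UTR and 0.589% in a 3′ UTR. The other 6 members had no match to these letters in their annotated transcripts, which says nothing more than that. These counts measure RNA, so an effect of an element on translation is outside what was measured.

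The library totals ran from 16110654 to 31333973 counts. From one row of the table on, the values of the KO columns sat 1 row below their identifiers, so the 37542 rows above that point were used. They hold 71.3 to 85.2% of each library's counts and all 10 members. Alpk1 itself, in counts scaled to a common library size by the trimmed mean of M-values (TMM) and given as CPM, stood at 25.9 to 32.1 CPM in WT PBS libraries, 52.3 to 55.3 in WT ADP-Hep, 20.3 to 22.3 in KO PBS and 19.2 to 22.5 in KO ADP-Hep. It was lower in every KO library than in every WT library, though not absent, and which part of the gene was deleted is not given in the sources used here. The 8 macrophage markers examined were all expressed, summing to 24826 to 29614 CPM over the libraries. Lyz2 gave most of that sum, at 19381 mean CPM in WT PBS cells, so the sum says little of the others. Cd14 went from 136 to 1604 mean CPM and Mertk from 194 to 39.3 with ADP-Hep in WT cells. The 9 erythroid markers summed to at most 1.19 CPM, with 5 of the 9 at 0 in all libraries. These include the globin genes Hba-a1 and Hba-a2. How reads shared by similar genes were counted is not given in the sources used here, so a 0 need not mean absence.

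With ADP-Hep, WT macrophages had less exporter RNA and more RNA for the ferroxidase Cp, the siderophore trap Lcn2, both NRAMP transporters and the ferritin heavy subunit. Under edgeR's quasi-likelihood test with Benjamini-Hochberg adjustment over all genes tested, 6 of the 10 members were higher and 3 lower at an adjusted p under 0.05. The background was high: 63.5% of all genes were called in this comparison, 31.9% higher and 31.6% lower, so the number of members called says little by itself. For 8 members the treated libraries all lay outside the range of the PBS libraries, as they did for 65.9% of all genes. Of the called members, 3 changed at least 2-fold: Slc40a1, Cp and Lcn2. In KO macrophages 1 member, Cp, was higher and 4 were lower (Slc40a1, Slc11a2, Ftl1 and Lcn2), where 28.9% of all genes were called, 13.7% higher and 15.3% lower. With libraries scaled by their totals alone, 3 members rather than 1 were higher in KO cells. No member changed 2-fold in KO cells, and the treatments did not overlap for 6 members, against 42.1% of all genes. The median log2 change over the members was 0.24 in WT cells and -0.02 in KO cells, against -0.01 and 0.01 over all genes tested. Of the responses, 8 differed between the genotypes by the interaction term, 5 being more positive and 3 more negative in WT cells, where 49.5% of all genes were called, 24.6% more positive and 24.9% more negative.

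**Figure D1:**
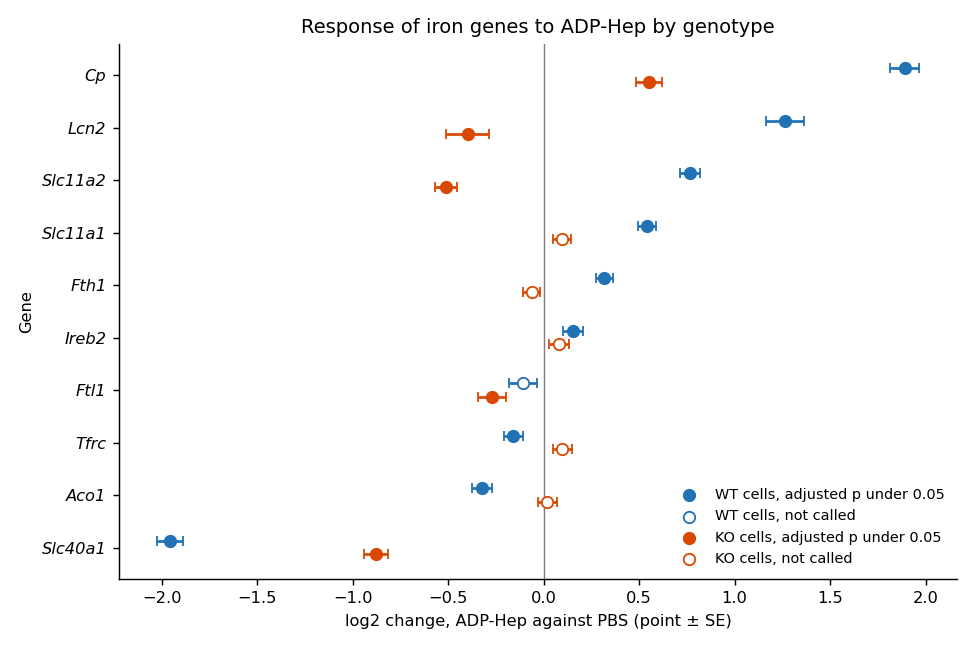
Log2 change with ADP-Hep against PBS (x axis, point ± SE from the edgeR fit) for each of the 10 iron genes (y axis), in WT cells (blue) and KO cells (orange); filled points have an adjusted p under 0.05. Lcn2 and Slc11a2 lie on opposite sides of 0 in the 2 genotypes, while Slc40a1 and Cp lie on the same side with a smaller change in KO cells.

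Levels between genes were compared per length of merged exons, in RPKM, which divides CPM by the exon length in kilobases. The order of genes depends on the length used. For Slc40a1 the merged exons span 9000 bases, whereas its transcript Slc40a1-201 has 3370. With a shorter length its RPKM would be higher in every group, so its place among the genes is not firm. In WT PBS cells Fth1 was at 3980.3 ± 85.4 RPKM (SD, n = 3) and Ftl1 at 1684 ± 139, and these 2 genes together held 1.585 to 1.873% of the counts in the rows used of each library. Slc11a1 (80.0 ± 1.5 RPKM) and Tfrc (78.9 ± 6.2) came next and did not differ beyond their spread. They were followed by Slc40a1 at 28.0 ± 2.2 RPKM and Aco1 at 23.2 ± 0.54, whose libraries did not overlap. Slc11a2 at 17.1 ± 0.81 RPKM and Ireb2 at 15.5 ± 0.93 overlapped. Lcn2 at 3.17 ± 0.25 RPKM and Cp at 1.09 ± 0.075 were the lowest. With ADP-Hep the order changed in WT cells: Slc40a1 fell from the fifth place to 7.29 ± 0.80 RPKM, below Slc11a2 at 29.1 ± 1.1, Aco1 at 18.6 ± 1.1 and Ireb2 at 17.3 ± 1.1, and overlapping Lcn2 at 7.55 ± 0.55. In KO cells with ADP-Hep, Slc40a1 stayed above Slc11a2, at 20.5 ± 0.39 against 8.82 ± 0.42 RPKM.

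**Figure D2:**
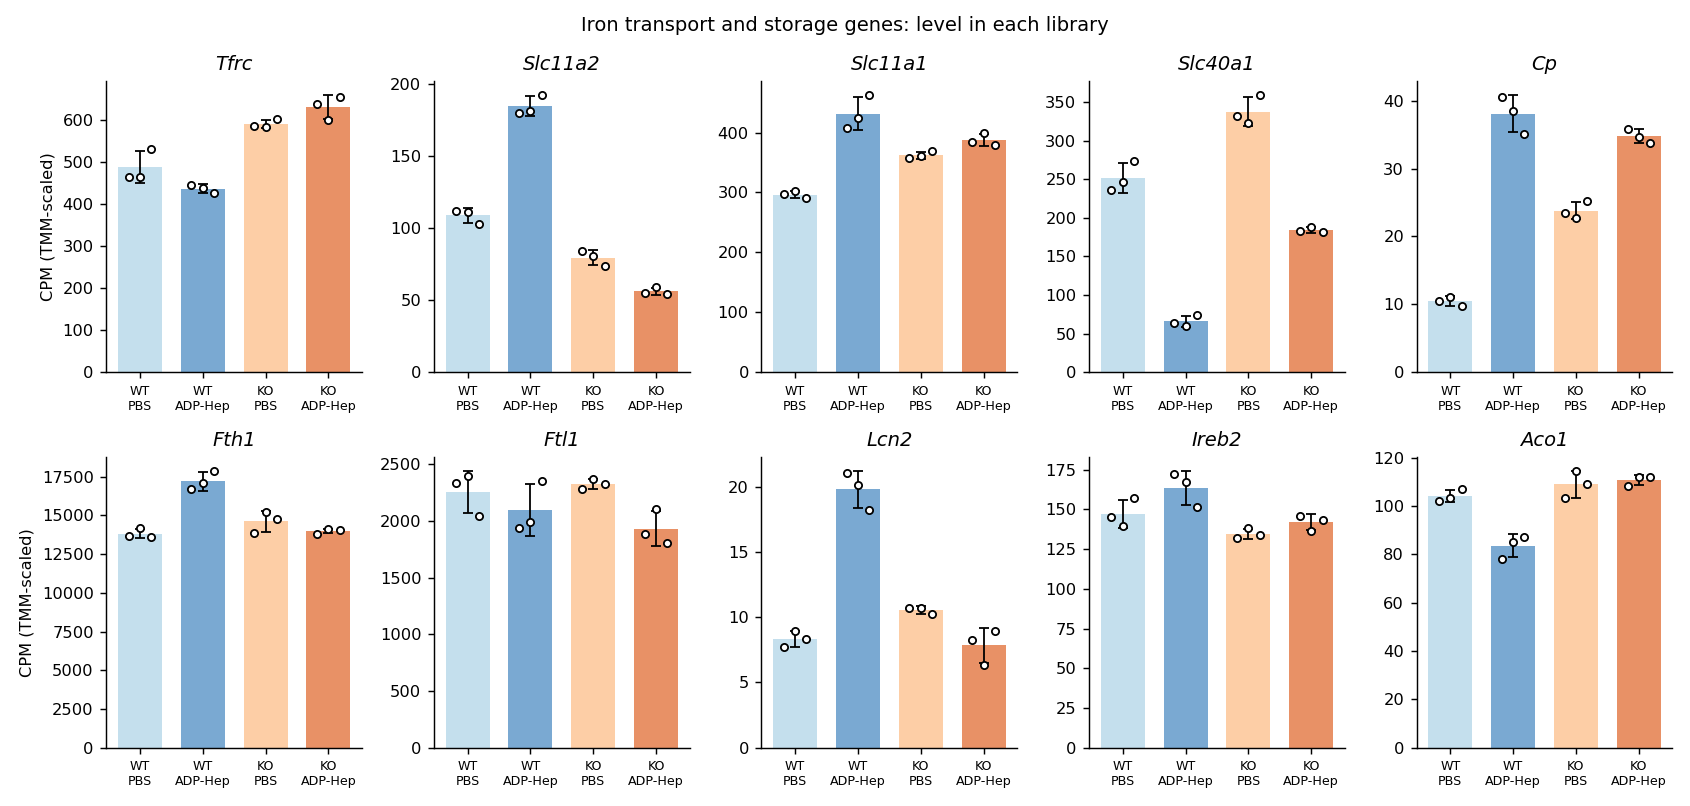
Level of each iron gene in CPM (y axis, linear, from 0, a separate scale per panel) in the 4 groups (x axis); bars are means, error bars SD and points the 3 libraries of each group. The WT ADP-Hep bar stands apart for Slc40a1, where its libraries lie between 59.3 and 73.4 CPM and every other library is at 181 or above.

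Slc40a1 (ENSMUSG00000025993, chr1:45908068-45926523, minus strand) encodes ferroportin, the known exporter of cellular iron. Its level was 236, 246 and 274 CPM in the WT PBS libraries and 64.1, 59.3 and 73.4 CPM with ADP-Hep. In KO libraries it was 332, 323 and 359.7 CPM with PBS and 183, 188 and 181 CPM with ADP-Hep. No 2 of the 4 groups overlapped, and both genotypes were lower with ADP-Hep. The log2 change was -1.96 ± 0.07 (SE) in WT cells (adjusted p = 8.4e-17) and -0.88 ± 0.06 in KO cells (adjusted p = 5.8e-10), so part of the fall was present in the libraries labelled Alpk1-/-. The WT change was the more negative by 1.08 ± 0.09 on the log2 scale (adjusted p = 1.8e-09). KO cells had more Slc40a1 RNA than WT cells under PBS, by 0.42 ± 0.06 on the log2 scale (adjusted p = 7e-05), and under ADP-Hep, by 1.50 ± 0.07 (adjusted p = 1.1e-14).

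Cp (ENSMUSG00000003617, chr3:19957054-20009145, plus strand) encodes the copper ferroxidase ceruloplasmin, which acts with ferroportin. It stood at 10.5, 11.1 and 9.68 CPM in WT PBS libraries and at 40.6, 38.6 and 35.1 CPM in WT ADP-Hep libraries. In KO cells it was already 23.5, 22.8 and 25.2 CPM with PBS and reached 35.9, 34.6 and 33.8 CPM with ADP-Hep. The 2 treated groups overlapped, whereas the 2 PBS groups did not. The log2 change was 1.89 ± 0.08 in WT cells (adjusted p = 4.5e-17) and 0.55 ± 0.07 in KO cells (adjusted p = 1.4e-06), with a difference of 1.34 ± 0.11 (adjusted p = 9.1e-11). Much of that difference lay in the PBS groups: KO exceeded WT by 1.20 ± 0.08 on the log2 scale with PBS (adjusted p = 3.1e-10), against -0.14 ± 0.06 under ADP-Hep (adjusted p = 0.057, not called). That last value depended on the setting: it was called lower in 5 of 21 other settings, reaching -0.18 (adjusted p = 0.016) without WT ADP-Hep replicate 3, and was 0.01 (adjusted p = 0.87) with libraries scaled by their totals alone. Cp was the only member that differed at least 2-fold between genotypes under PBS. The gene overlaps Hps3 on the other strand, and the strand setting of the counting is not given in the sources used here. Hps3 stood at 48.6, 57.1, 55.4 and 51.1 mean CPM in WT PBS, WT ADP-Hep, KO PBS and KO ADP-Hep cells, and its WT log2 change was 0.24 ± 0.07 (adjusted p = 0.0038).

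Tfrc (ENSMUSG00000022797, chr16:32608920-32632794, plus strand) encodes the receptor that brings iron-loaded transferrin into the cell. It measured 466, 466 and 532 CPM in WT PBS libraries and 447, 439.7 and 426 CPM in WT ADP-Hep libraries. KO libraries held more, at 588, 584 and 604 CPM with PBS and 639, 601 and 657 CPM with ADP-Hep. Every KO library exceeded every WT library. The WT change was small, -0.16 ± 0.05 on the log2 scale (adjusted p = 0.0079), and rested on 1 library: without WT PBS replicate 3 it was -0.09 (adjusted p = 0.11). In KO cells the value was 0.10 ± 0.05 (adjusted p = 0.16, not called), and the responses differed by -0.25 ± 0.07 (adjusted p = 0.0042). Tfrc was higher in KO than in WT cells by 0.28 ± 0.05 on the log2 scale with PBS (adjusted p = 0.00044) and by 0.53 ± 0.05 under ADP-Hep (adjusted p = 9.8e-10).

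Within a library, the ratio of 2 genes' counts does not depend on how libraries are scaled. The ratio of importer to exporter counts, Tfrc over Slc40a1, was 1.93 ± 0.042 (SD, n = 3) in WT PBS cells and 6.73 ± 0.83 with ADP-Hep. In KO cells it was 1.75 ± 0.068 with PBS and 3.44 ± 0.22 with ADP-Hep. The groups did not overlap in any of the 4 comparisons of treatment or genotype, and the exact two-sided permutation test gave p = 0.1 in each, the smallest value that 3 against 3 libraries allow. The ratio was highest in the 3 WT ADP-Hep libraries, from 5.80 to 7.41, where Slc40a1 was lowest.

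**Figure D3:**
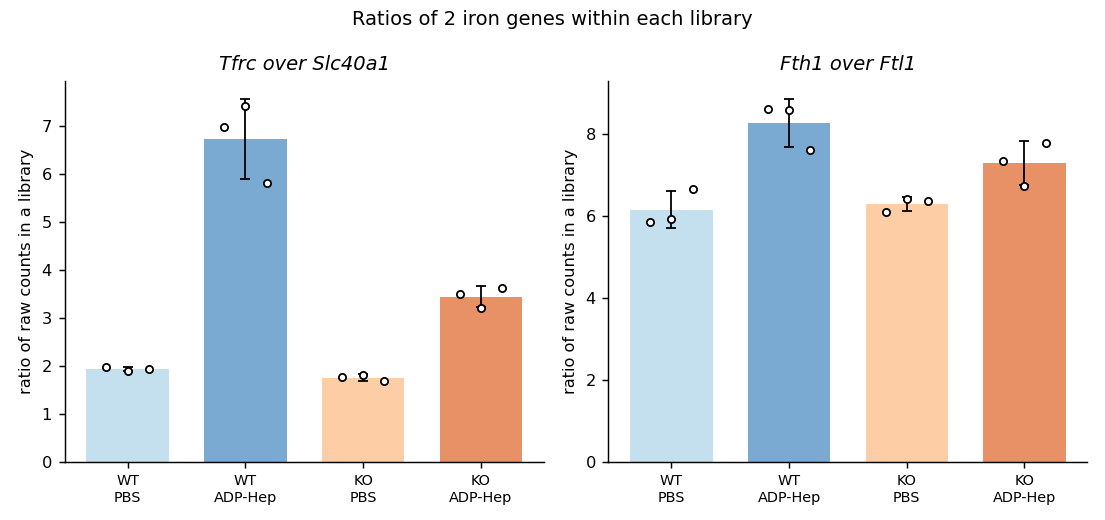
Ratio of raw counts of 2 genes within each library (y axis, linear, from 0), Tfrc over Slc40a1 on the left and Fth1 over Ftl1 on the right, in the 4 groups (x axis); bars are means, error bars SD and points libraries. Tfrc over Slc40a1 is 5.80 to 7.41 in WT ADP-Hep libraries and at most 3.62 elsewhere, while the groups lie closer together for Fth1 over Ftl1.

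The NRAMP transporters responded differently by genotype. Slc11a2 (ENSMUSG00000023030, chr15:100387898-100425072, minus strand) encodes DMT1, which moves ferrous iron out of endosomes and across the plasma membrane. It was 112, 111 and 103 CPM in WT PBS libraries and 180.2, 182 and 193 CPM in WT ADP-Hep libraries. In KO libraries the direction was the opposite, from 84.3, 80.6 and 73.9 CPM with PBS to 54.9, 59.1 and 54.1 CPM with ADP-Hep. None of the 4 groups overlapped another. The log2 change was 0.76 ± 0.05 in WT cells (adjusted p = 2.3e-12) and -0.51 ± 0.06 in KO cells (adjusted p = 2e-07). The responses differed by 1.28 ± 0.08 (adjusted p = 6.7e-13). KO cells held less Slc11a2 RNA than WT cells, by -0.45 ± 0.06 with PBS (adjusted p = 3.1e-06) and by -1.73 ± 0.06 with ADP-Hep (adjusted p = 3.3e-19). Gm5475, annotated as protein-coding, overlaps the gene on the other strand. It averaged 0.431, 0.748, 0.469 and 0.0708 CPM in the WT PBS, WT ADP-Hep, KO PBS and KO ADP-Hep groups. Its log2 change was 0.75 ± 0.40 in WT cells (adjusted p = 0.1, not called) and -2.55 ± 0.68 in KO cells (adjusted p = 0.0059). These are the directions of Slc11a2, on 1 to 2 counts per KO ADP-Hep library. Whether the 2 genes shared reads was not tested, as the strand setting is not given in the sources used here.

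Slc11a1 (ENSMUSG00000026177, chr1:74375195-74386062, plus strand) encodes NRAMP1, the transporter of the phagosome membrane known for its part in resistance to intracellular bacteria. Which allele of the gene the mouse strain used here carries was not examined. The RNA levels below therefore do not show whether a working transporter was made. Slc11a1 RNA was 297, 302 and 290.5 CPM in WT PBS libraries and 408, 424 and 463 CPM in WT ADP-Hep libraries. KO libraries were at 357, 360.5 and 369 CPM with PBS and at 384, 399 and 379.7 CPM with ADP-Hep. KO PBS libraries thus lay between the 2 WT groups. The log2 change was 0.54 ± 0.05 in WT cells (adjusted p = 1.5e-10), against 0.10 ± 0.05 in KO cells (adjusted p = 0.12, not called), and the difference was 0.44 ± 0.07 (adjusted p = 3.4e-06). KO exceeded WT by 0.29 ± 0.05 on the log2 scale with PBS (adjusted p = 0.00011). Under ADP-Hep, KO was lower by TMM scaling, at -0.16 ± 0.05 (adjusted p = 0.0046), and not with libraries scaled by their totals alone, at 0.00 (adjusted p = 0.99).

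Ferritin RNA was the most abundant of the set, and in WT cells the heavy subunit rose while the light subunit was not called. Fth1 (ENSMUSG00000024661, chr19:9980598-9985098, plus strand) encodes the heavy subunit, which carries the ferroxidase centre. It was 13653, 14149 and 13620.0 CPM in WT PBS libraries and 16665, 17061 and 17884 CPM in WT ADP-Hep libraries. KO libraries overlapped between treatments, with 13876, 15192 and 14775 CPM under PBS and 13808, 14109.8 and 14025 CPM under ADP-Hep. The log2 change was 0.32 ± 0.04 in WT cells (adjusted p = 8.4e-07) and -0.06 ± 0.04 in KO cells (adjusted p = 0.30, not called), with a difference of 0.38 ± 0.06 (adjusted p = 1.7e-05). The genotypes overlapped under PBS (0.08 ± 0.04, adjusted p = 0.26), and KO was lower under ADP-Hep (-0.30 ± 0.04, adjusted p = 2e-06).

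Ftl1 (ENSMUSG00000050708, chr7:45457944-45459884, minus strand) encodes the light subunit, which aids mineral formation inside the shell. It was 2335, 2391 and 2045 CPM in WT PBS libraries and 1936, 1987 and 2354 CPM in WT ADP-Hep libraries, which overlapped. In KO libraries it was 2282, 2368 and 2325 CPM with PBS and 1881, 2101 and 1803 CPM with ADP-Hep, which did not. The log2 value was -0.11 ± 0.07 in WT cells (adjusted p = 0.21, not called), but -0.20 (adjusted p = 0.0076) without WT ADP-Hep replicate 3, the library at 2354 CPM. In KO cells Ftl1 fell by 0.27 on the log2 scale (SE 0.07, adjusted p = 0.012), and by 0.22 (adjusted p = 0.054) without the KO ADP-Hep library that has no replicate number. The responses were not called different (0.16 ± 0.11, adjusted p = 0.22). Neither genotype comparison was called, at 0.04 ± 0.07 with PBS (adjusted p = 0.78) and at -0.12 ± 0.07 in treated cells (adjusted p = 0.18). Leaving out single libraries moved the treated value between -0.02 and -0.18. It was called without KO ADP-Hep replicate 3 (-0.18, adjusted p = 0.042) and with no filter on low counts (-0.12, adjusted p = 0.047). Near-identical pseudogenes took few reads: Ftl1-ps1 had 15 to 57 counts in a library. Reads shared with such copies may have been left out of both, so whether Ftl1 lost reads was not tested. Pseudogenes of Fth1 were not looked up.

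The ratio of Fth1 to Ftl1 counts was 6.14 ± 0.45 (SD, n = 3) in WT PBS cells and 8.26 ± 0.58 with ADP-Hep. In KO cells it was 6.28 ± 0.18 with PBS and 7.28 ± 0.53 with ADP-Hep. The treatment groups did not overlap in either genotype, each with an exact two-sided permutation p = 0.1, the smallest that the design allows. The genotypes overlapped under PBS (exact permutation p = 0.7) and under ADP-Hep (exact permutation p = 0.2). Heavy subunit RNA was thus higher relative to light subunit RNA in the treated libraries of both genotypes. Fth1 was the subunit called in WT cells, and Ftl1 the one called in KO cells.

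Of the iron regulatory proteins, Aco1 fell in WT cells, and the change of Ireb2 was small and depended on single libraries. Aco1 (ENSMUSG00000028405, chr4:40143081-40198338, plus strand) encodes IRP1, which is a cytosolic aconitase when it holds an iron-sulphur cluster. It was 102, 104 and 107 CPM in WT PBS libraries and 78.3, 85.2 and 87.4 CPM in WT ADP-Hep libraries. KO libraries overlapped between treatments, at 104, 115 and 109 CPM and at 108, 112 and 112 CPM. The log2 change was -0.32 ± 0.05 in WT cells (adjusted p = 6.1e-06) and 0.02 ± 0.05 in KO cells (adjusted p = 0.82, not called), with a difference of -0.34 ± 0.07 (adjusted p = 0.00036). KO exceeded WT under ADP-Hep by 0.41 ± 0.05 on the log2 scale (adjusted p = 1.6e-07), and under PBS the value was 0.07 ± 0.05 (adjusted p = 0.46, not called).

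Ireb2 (ENSMUSG00000032293, chr9:54863789-54912530, plus strand) encodes IRP2, which is degraded when iron is ample. It was 145, 139.8 and 157 CPM in WT PBS libraries and 172, 167 and 152 CPM in WT ADP-Hep libraries, which overlapped. KO libraries were at 132, 138 and 134 CPM with PBS and at 146, 137 and 143 CPM with ADP-Hep. The WT log2 change of 0.15 ± 0.05 passed the test (adjusted p = 0.013) but not without WT PBS replicate 2 (0.12, adjusted p = 0.091) or WT ADP-Hep replicate 1 (0.12, adjusted p = 0.088), nor with libraries scaled by their totals alone (0.04, adjusted p = 0.51). The KO value was 0.08 ± 0.05 (adjusted p = 0.29), and the responses were not called different (0.07 ± 0.08, adjusted p = 0.44). Under PBS the KO value against WT was -0.13 ± 0.05 (adjusted p = 0.12, not called). Under ADP-Hep it was -0.21 ± 0.05 (adjusted p = 0.0013), and -0.05 (adjusted p = 0.41) with libraries scaled by their totals alone.

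Lcn2 (ENSMUSG00000026822, chr2:32384633-32388252, minus strand) encodes lipocalin 2, a secreted protein that binds siderophores, the small molecules with which bacteria capture iron. It was 7.68, 8.97 and 8.33 CPM in WT PBS libraries and 21.03, 20.15 and 18.22 CPM in WT ADP-Hep libraries. In KO libraries it was 10.7, 10.7 and 10.2 CPM with PBS and 8.28, 6.36 and 8.96 CPM with ADP-Hep. The WT ADP-Hep libraries lay above all others, and the counts behind these values were 81 to 516 per library. Lcn2 rose by 1.26 ± 0.10 on the log2 scale in WT cells (adjusted p = 3e-11) and fell by 0.40 in KO cells (SE 0.11, adjusted p = 0.0088), and the difference of 1.66 ± 0.15 (adjusted p = 1.1e-09) was the largest of any member. KO against WT was -1.31 ± 0.10 under ADP-Hep (adjusted p = 1.2e-11). Under PBS it was 0.35 ± 0.11 (adjusted p = 0.046), a call that held in 9 of the 21 other settings.

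Neutrophils and their precursors also make Lcn2, and markers of these cells were present at low levels. The 14 marker genes on the list, which leaves out Lcn2, summed to 326 to 361 CPM in WT PBS, 304 to 323 in WT ADP-Hep, 346 to 373 in KO PBS and 272 to 282 in KO ADP-Hep libraries. Of the 11 tested, 3 were higher and 2 lower with ADP-Hep in WT cells, beside 31.9% and 31.6% of all genes, and 5 were lower in KO cells, beside 15.3% of all genes. The markers did not move as one: Mmp8 and Csf3r, at 124 and 99.1 mean CPM the most abundant in WT PBS cells, fell in WT cells by 0.36 (adjusted p = 4e-07) and by 0.58 (adjusted p = 1.5e-06). S100a9, Camp and Ngp rose there by 0.42 (adjusted p = 0.031), 1.05 (adjusted p = 3.2e-05) and 0.29 (adjusted p = 0.0009), and were among the 5 that fell in KO cells. The S100a9 libraries of the WT groups overlapped. The summed level, to which Mmp8 and Csf3r gave the most, was lower in WT cells with ADP-Hep, while Lcn2, S100a9, Camp and Ngp were higher. In KO cells the sum and Lcn2 were both lower. The sum thus mostly follows its most abundant genes and does not stand for the whole list. The part of these cells in the Lcn2 values was not tested. In bulk RNA, fewer cells of a type and less RNA per cell cannot be told apart.

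Between the genotypes under PBS, 5 members were higher in KO cells (Cp, Slc40a1, Lcn2, Slc11a1 and Tfrc) and 1, Slc11a2, was lower, where 11.4% of all genes were called, 5.57% higher and 5.82% lower. The libraries of the 2 genotypes did not overlap for 7 of the 10 members, and for 27.7% of all genes. The median member difference was 0.18 on the log2 scale against 0.00 over all genes. Under ADP-Hep 3 members were higher in KO cells (Slc40a1, Tfrc and Aco1) and 5 lower (Slc11a2, Lcn2, Fth1, Ireb2 and Slc11a1), or 3 lower with libraries scaled by their totals alone, where 64.8% of all genes were called, 32.8% higher and 32% lower. The genotypes did not overlap for 8 members there, and for 68.6% of all genes. The members with at least a 2-fold difference there were Slc40a1, Slc11a2 and Lcn2. These genotype comparisons share their libraries with the treatment comparisons, so they restate the same 12 values per gene from another side.

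Genes whose levels followed Slc40a1 and Cp most closely over the 12 libraries were looked up, as the members with the largest fall and rise in WT cells. For Slc40a1 they were Ldlrad3, Mtmr3 and Ncoa3, with Pearson correlations of log2 CPM of 0.995, 0.993 and 0.992 (n = 12 libraries in 4 groups that share treatment and genotype). Ldlrad3 stood at 30.2 to 31.6 CPM in WT PBS, 7.82 to 10.3 in WT ADP-Hep, 40.8 to 43.1 in KO PBS and 22.4 to 26.0 in KO ADP-Hep libraries. That is the same order of groups as Slc40a1. For Cp they were Aif1 (0.966), a marker of macrophages and microglia, Gm26520 (0.956) and Tmem176a (0.945). Tmem176a averaged 24.0 ± 0.83 CPM in WT PBS, 75.1 ± 1.8 in WT ADP-Hep, 45.0 ± 5.1 in KO PBS and 49.9 ± 1.4 in KO ADP-Hep cells, so it too was higher in KO than WT cells under PBS. These genes were picked for following Slc40a1 or Cp in the same libraries, so a shared order of groups is no further result.

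Around the members stood 62 other genes of iron and haem handling, of which 45 were tested. In WT cells 15 of these were higher and 19 lower with ADP-Hep, with a median log2 change of -0.06, beside the 31.9% and 31.6% of all genes. In KO cells 5 were higher and 9 lower, or 11.1% and 20% of the 45, beside 13.7% and 15.3% of all genes. Without the unnumbered KO ADP-Hep library these numbers were 3 and 5. The calls over all genes in KO cells fell as well, from 1678 higher and 1870 lower to 1274 and 1483. Of all 45, 30 responses differed between genotypes, 14 more positive and 16 more negative in WT cells, beside 24.6% and 24.9% of all genes. The counts of the lists that follow stand against the same shares of all genes called, 63.5% in WT cells and 28.9% in KO cells, and nothing particular to a list is read from them.

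Among the genes of metal import, 1 of 5 tested rose in WT cells and 4 fell. The riser was Slc39a14, the zinc and iron importer ZIP14, from 14.6 ± 1.9 to 41.7 ± 4.2 CPM (log2 1.52 ± 0.09, adjusted p = 1e-13), against 14.3 ± 0.23 and 15.6 ± 1.4 CPM in KO cells. Steap3, the endosomal ferric reductase that works with transferrin receptor, fell by 0.54 in WT cells (adjusted p = 1.7e-08) and by 0.30 in KO cells (adjusted p = 0.00048). Trf, transferrin itself, fell by 0.51 in WT cells (adjusted p = 3.5e-09) and rose by 0.26 in KO cells (adjusted p = 0.00032). Hfe, the haemochromatosis protein that binds transferrin receptor, followed the same opposite course and was the only tested gene of 9 on export and systemic control. It averaged 87.6 ± 1.8 CPM in WT PBS and 50.2 ± 1.3 in WT ADP-Hep cells, against 105 ± 3.1 and 124 ± 2.2 CPM in KO cells, and its responses differed by -1.04 ± 0.07 on the log2 scale (adjusted p = 1.6e-12).

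Of the genes that handle ferritin and its iron, 2 of 5 tested rose and 2 fell in WT cells. Ncoa4, the receptor that carries ferritin to the lysosome, fell from 156 ± 4.4 to 82.8 ± 4.3 CPM (log2 -0.92 ± 0.05, adjusted p = 2.5e-14), while Fth1 rose. In KO cells Ncoa4 had 182 ± 9.8 and 165 ± 2.9 CPM, a log2 change of -0.14 (adjusted p = 0.03) that missed the threshold in 7 other settings. Fbxl5, the ubiquitin ligase subunit that targets IRP2, rose by 0.54 on the log2 scale in WT cells (adjusted p = 1.4e-07), and the iron chaperone Pcbp1 by 0.29 (adjusted p = 1.8e-05). Neither was called in KO cells, at -0.15 (adjusted p = 0.11) and -0.12 (adjusted p = 0.086).

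Haem uptake, breakdown and export held 6 higher and 5 lower of 12 tested genes in WT cells (63.5% of all genes were called), and 1 higher and 3 lower in KO cells (28.9%). Spic, the transcription factor of red-pulp macrophages known to support Slc40a1 expression there, rose from 1.87 ± 0.12 to 13.7 ± 0.45 CPM in WT cells (log2 2.87 ± 0.13, adjusted p = 9e-16), in the same libraries in which Slc40a1 fell. In KO cells Spic stood at 1.34 ± 0.23 and 1.83 ± 0.32 CPM (log2 0.43 ± 0.22, adjusted p = 0.17). Hmox1, the haem oxygenase that frees iron from haem, was named after its values were seen: it went from 387 ± 13.1 to 696 ± 96.4 CPM in WT cells and from 482 ± 40.8 to 409 ± 19.5 CPM in KO cells, and the responses differed by 1.08 ± 0.12 on the log2 scale (adjusted p = 3.4e-06). The haem exporter Flvcr1 fell by 1.06 in WT cells (adjusted p = 3.6e-12) and by 0.64 in KO cells (adjusted p = 1.8e-07). Bach1, the haem-binding repressor of haem and ferritin genes, fell by 0.57 (adjusted p = 2.2e-11) and by 0.24 (adjusted p = 0.00013).

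In haem synthesis, 1 of 8 tested genes rose and 5 fell in WT cells. Alas1, the first and rate-limiting enzyme, rose from 108 ± 1.5 to 272 ± 7.9 CPM (log2 1.33 ± 0.04, adjusted p = 9.4e-19) and stood at 116 ± 4.0 and 116 ± 2.2 CPM in KO cells. Cpox and Fech, later enzymes of the same path, fell by 0.61 (adjusted p = 5.3e-08) and by 0.38 (adjusted p = 5.1e-07) in WT cells. Ppox, which acts between them, fell by 0.27 in WT cells (adjusted p = 0.018) and by 0.29 in KO cells (adjusted p = 0.021), calls that were lost without some single libraries.

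Of 12 tested genes of mitochondrial iron and iron-sulphur clusters, 5 were higher and 2 lower in WT cells, and 2 were higher and 2 lower in KO cells, which is near the 63.5% and 28.9% of all genes called. Both mitoferrins, the carriers that bring iron into mitochondria, rose in WT cells: Slc25a28 from 13.1 ± 0.54 to 25.6 ± 1.2 CPM (log2 0.98 ± 0.08, adjusted p = 6e-11) and Slc25a37 from 46.8 ± 4.6 to 80.0 ± 1.9 CPM (log2 0.78 ± 0.07, adjusted p = 4.1e-10). Slc25a28 fell by 0.29 in KO cells (adjusted p = 0.018), a call lost in some other settings. Slc25a37 was not called there, at 0.05 (adjusted p = 0.61). The cluster scaffold Iscu rose by 0.47 ± 0.06 in WT cells (adjusted p = 1.7e-07) and by 0.25 ± 0.06 in KO cells (adjusted p = 0.0033). Hscb, the co-chaperone of cluster transfer, fell by 1.29 (adjusted p = 4.1e-11) and by 0.44 (adjusted p = 0.00094). Of the other genes of siderophore handling, 2 were tested, and Ltf, the iron-binding lactoferrin of neutrophil granules that is also on the neutrophil list, fell by 0.65 in KO cells (adjusted p = 1.6e-06) and was at 0.15 in WT cells (adjusted p = 0.093, not called).

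**Figure D4:**
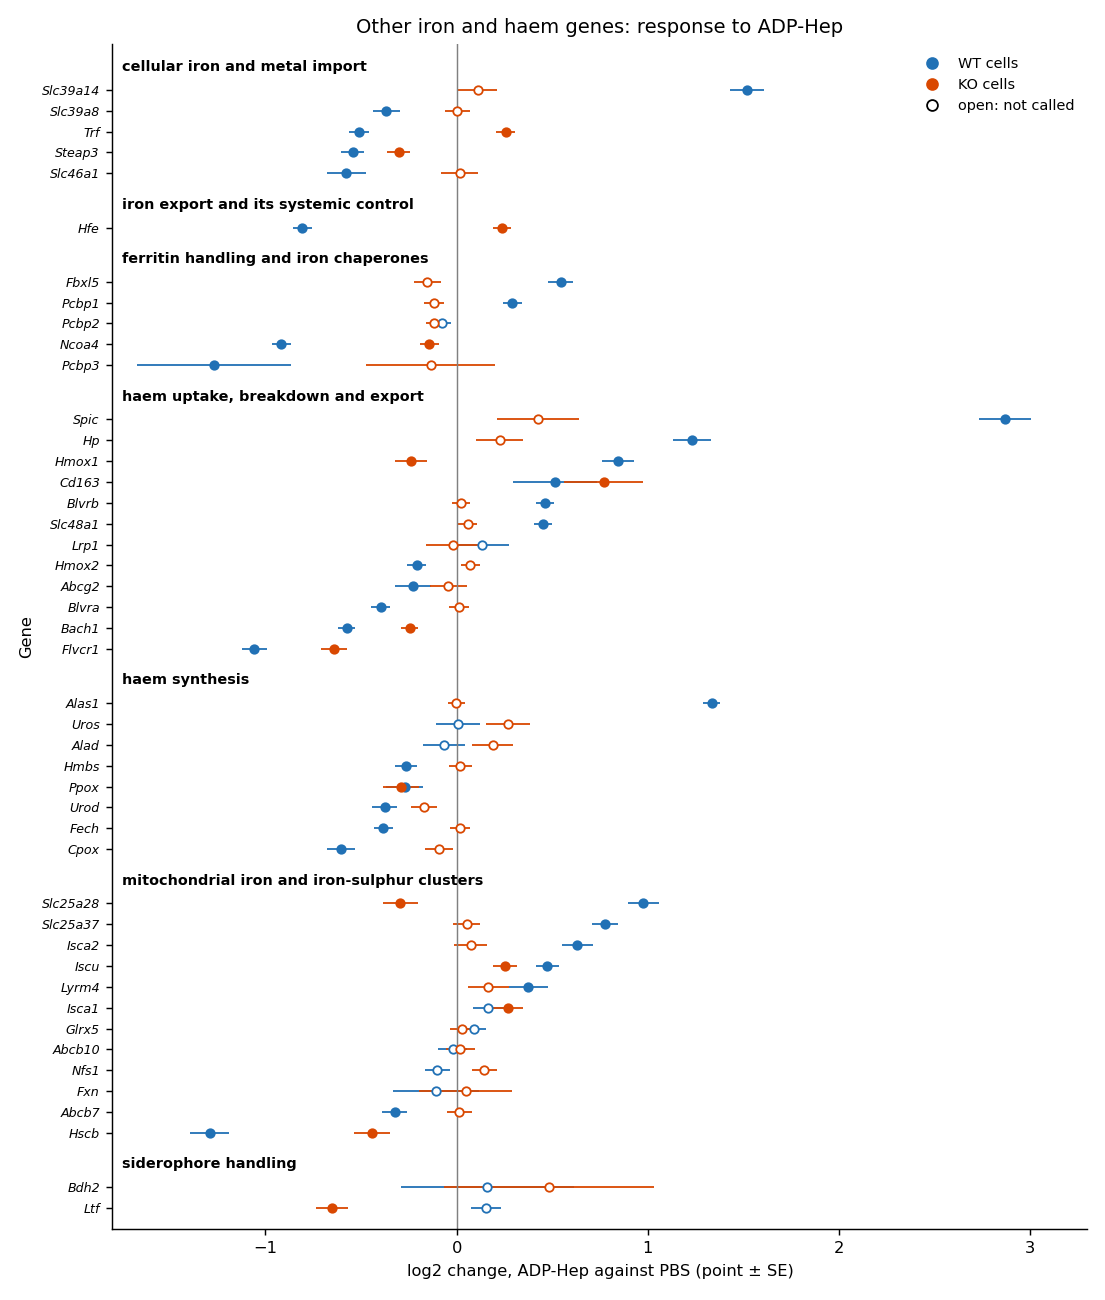
Log2 change with ADP-Hep against PBS (x axis, point ± SE from the edgeR fit) of the 45 tested iron and haem genes outside the 10 members (y axis, grouped by role), in WT cells (blue) and KO cells (orange); open points have an adjusted p of 0.05 or more. Spic at 2.87, Slc39a14 at 1.52 and Alas1 at 1.33 lie farthest to the right in WT cells, with KO values of 0.43, 0.11 and 0.00, none of them called.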

How the data were processed

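RNA of 12 BMDM libraries, 3 in each of 4 groups, was sequenced. A stranded mRNA kit and total RNA were used, per the labels' protocols. The authors' deposited table holds raw counts per gene as whole numbers. Builds named in the submitters' processing notes are mm10 and hg38, and tools are STAR, featureCounts, RSEM, DESeq2, FastQC and Trim Galore. What each tool did, the annotation and the strand setting of the counting were not given in the sources used here, so reads of overlapping or near-identical genes may have been shared between them. Columns were matched to samples by name. In the KO ADP-Hep group, 1 column number matched no label, and the column was kept there without a replicate number. Other columns of per-sample values not used numbered 0.

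The KO columns slipped by 1 row against the identifiers part of the way down the table. The correlation across genes of WT and KO mean log2(count + 1) was 0.9965 over the rows used, and below them it was 0.04197 as deposited and 0.9787 with the KO columns moved up. A margin of 100 rows was left out above the break.

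Counts were analysed in R 4.3.3 with edgeR 4.0.16 (TMM scaling, filterByExpr, 1 robust quasi-likelihood model of the 4 group means over 12261 genes). Benjamini-Hochberg adjusted p under 0.05 was called. The fit was also run on simulated counts, with the same spread for every gene and only increases, in a small set of genes. That is a simpler case than these data, so the run does not vouch for the calls here. In the 12 libraries the biological coefficient of variation was 4.81%, and no 2 libraries of a group agreed within sampling noise (chi-square per degree of freedom 1.97 to 10.6). CPM used TMM-scaled library sizes, and RPKM divided these by merged exon length in GENCODE M21 (GRCm38). Ratios of counts were compared by an exact permutation test. Figures were drawn with matplotlib 3.10.9 in Python 3.11.15. Alternatives were 2 other scalings, DESeq2 1.42.0, limma-voom (limma 3.58.1), 2 other filters, fits of the compared groups alone, all rows as deposited, a replicate block and each library left out.

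The members, the lists and the rules were chosen with earlier results of these data known. All members are named. From each other list, up to 3 called genes with the smallest p in WT cells and up to 2 in KO cells are named.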

Additional observations from a re-analysis of the deposited data

Results flagged for a closer look

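The responses of 8 of the 10 iron genes to ADP-Hep differed between WT and KO cells by the interaction term of the edgeR fit (quasi-likelihood test, Benjamini-Hochberg adjusted p under 0.05), where 49.5% of all genes tested did. The WT response was the more positive for Lcn2 by 1.662 on the log2 scale (adjusted p = 1.1e-09), for Cp by 1.339 (adjusted p = 9.1e-11), for Slc11a2 by 1.278 (adjusted p = 6.7e-13), for Slc11a1 by 0.4446 (adjusted p = 3.4e-06) and for Fth1 by 0.3812 (adjusted p = 1.7e-05). It was the more negative for Slc40a1, with a difference of -1.081 (adjusted p = 1.8e-09), for Aco1, with -0.3422 (adjusted p = 0.00036), and for Tfrc, with -0.2547 (adjusted p = 0.0042). Lcn2 and Slc11a2 were called in opposite directions in the 2 genotypes. All 8 calls held in each of the 20 other settings tried, the highest adjusted p being 0.039, for Tfrc.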

How the results depend on the processing

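Of 1040 values for a member's change under another setting, 1004 kept their direction and their side of the threshold, and 206 of 208 counts of members stayed within 1.5 times. Of the 36 values that changed, 18 were with a library left out and 10 with libraries scaled by their totals alone, and 12 of the 36 were Lcn2 in KO against WT cells under PBS. Both counts that changed were with the totals alone, a scaling that moved the median log2 change of all genes to -0.12 in WT cells, to -0.16 for the difference between responses and to 0.17 for KO against WT under ADP-Hep. With that scaling the split of calls was 2990 up and 4927 down in WT cells (3914 and 3871 as reported), 2360 and 1483 in KO cells (1678 and 1870), 2020 and 4507 for the difference (3018 and 3053), and 5609 and 2722 for KO against WT under ADP-Hep (4016 and 3929). Members called higher in KO cells then numbered 3 instead of 1, and members lower in KO under ADP-Hep 3 instead of 5. Under ADP-Hep the KO minus WT value became 0.000498 for Slc11a1, 0.0389 for Ftl1 and 0.0134 for Cp, and the difference between responses became -0.0811 for Ireb2, each with the sign reversed. Tfrc (0.14) and Slc11a1 (0.14) were then called higher in KO cells, adjusted p 0.038 and 0.014. Leaving out single libraries, the Aco1 value in KO cells ran from -0.0171 to 0.0590 and the Ftl1 value under PBS from -0.0228 to 0.0902, neither called. Over these fits the members called ran from 5 to 6 higher and 2 to 4 lower in WT cells, 1 higher and 3 to 4 lower in KO cells, 5 and 3 for the difference, 4 to 5 and 1 under PBS, and 3 and 5 to 6 under ADP-Hep. Using all rows as deposited called 1632 genes higher and 1518 lower under PBS instead of 683 and 714, and without KO PBS replicate 1 the numbers were 438 and 391.

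A pairing of the libraries by replicate number was not clear. The correlation of their deviations from the group means was -0.398 to 0.212 over 15 same-number pairs (median 0.0826), with 4 over 0.1. Over 30 pairs with different numbers it was -0.234 to 0.264 (median -0.0222), with 7 over 0.1. The replicate block, which leaves out the unnumbered library, called 1169 genes higher and 1414 lower in KO cells, and lost the calls of Ftl1 in KO cells (-0.22, adjusted p = 0.082) and of Lcn2 under PBS (0.33, adjusted p = 0.057). For the 45 other iron and haem genes, settings added after the data were seen gave 3 higher in KO cells instead of 5 with the block, 5 higher in KO under PBS instead of 8 without KO PBS replicate 1, and 0 lower instead of 3 without KO PBS replicate 3. Over all genes the same fits also called fewer. They gave 1169 higher in KO cells instead of 1678, 438 higher in KO under PBS instead of 683, and 500 lower instead of 714. The SE was largest for Lcn2 (0.10 in WT cells and 0.11 in KO cells), the member with the fewest counts.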
